A study of Homo sapiens with 16 samples.

Results

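SKNO-1 cells treated with Corin alone were compared with SKNO-1 cells given the solvent DMSO, across every gene of the deposited count table. The members were the 60603 genes of that table, read in the 4 libraries labelled Corin or DMSO out of 16 libraries in the series. Of these genes, 17479 had enough counts in the 8 SKNO-1 libraries to be tested, and the rest are only accounted for. The study concerns the CoREST corepressor complex, the acetyltransferase p300 and retinoic acid signalling in acute myeloid leukaemia, and this comparison addresses the effect of Corin without retinoic acid. Both groups were SKNO-1 cells in RPMI1640 with fetal bovine serum, penicillin and streptomycin, plus GM-CSF at 10 ng/mL, and were collected at 24 h. The Corin group received 0.1 µM Corin. The vehicle group received DMSO, for which the labels give the same figure of 0.1 µM. Each group had 2 libraries. The labels do not say whether these came from separate cultures, so p-values measure the spread between these libraries, which may be technical. SKNO-1 is a single human leukaemia line that depends on GM-CSF and carries the RUNX1-RUNX1T1 fusion. RUNX1T1, which blood cells without the fusion hardly express, was at 92.0 and 124 CPM (counts scaled to the library total) in the DMSO libraries and at 147 and 148 CPM in the Corin libraries.

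Corin joins a benzamide inhibitor of class I histone deacetylases to an inhibitor of the histone demethylase LSD1 (KDM1A) in 1 molecule. Both enzymes sit in the CoREST complex, which removes activating acetyl and methyl marks from histone H3 at sites chosen by DNA-binding repressors such as GFI1, GFI1B, REST and SNAI1. In myeloid progenitors LSD1 and GFI1 are known to keep monocyte genes silent.

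The promoters of 4 genes among the largest rises are shown here because they hold letters that DNA-binding partners of these complexes are known to favour. The sequences are from RefSeq on GRCh38.p14, from 250 bases before to 50 bases after the annotated start, written 5′ to 3′ on the gene's strand, and capitals mark the matched letters. OTOF (chr2:26558707-26559006, minus strand) holds TTATCT, the reverse complement of the GATA-type letters AGATAA. ITGAM (chr16:31259725-31260024, plus strand) and CD86 (chr3:122055112-122055411, plus strand) hold the RUNX-type letters TGTGGT. MS4A4A (chr11:60280416-60280715, plus strand) holds AAATCA, the core letters bound by GFI1 and GFI1B. Promoters were examined gene by gene for 9 of the 12 largest rises and for only some of the largest falls. The remaining genes were left out of this step, so whether their promoters hold these letters is not described. Beside the 4 shown, the other 5 of the 9 rises (FCGR2B, LRP1, CD22, VCAN and TNNT1) held none of the letters searched. Among the falls examined, PRSS57 and KDR held the RUNX-type and ADI1 the GATA-type letters.
OTOF: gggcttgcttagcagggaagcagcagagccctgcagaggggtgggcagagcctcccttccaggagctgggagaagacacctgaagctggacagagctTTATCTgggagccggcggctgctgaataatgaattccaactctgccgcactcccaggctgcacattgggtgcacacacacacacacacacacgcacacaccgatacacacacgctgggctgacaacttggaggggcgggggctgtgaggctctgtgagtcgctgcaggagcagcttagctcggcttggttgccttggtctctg
ITGAM: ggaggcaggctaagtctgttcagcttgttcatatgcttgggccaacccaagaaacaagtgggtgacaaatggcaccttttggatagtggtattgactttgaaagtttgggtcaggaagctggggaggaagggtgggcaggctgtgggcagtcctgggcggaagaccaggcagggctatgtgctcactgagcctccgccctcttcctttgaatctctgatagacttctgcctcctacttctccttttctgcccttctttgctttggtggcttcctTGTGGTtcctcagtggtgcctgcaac
MS4A4A: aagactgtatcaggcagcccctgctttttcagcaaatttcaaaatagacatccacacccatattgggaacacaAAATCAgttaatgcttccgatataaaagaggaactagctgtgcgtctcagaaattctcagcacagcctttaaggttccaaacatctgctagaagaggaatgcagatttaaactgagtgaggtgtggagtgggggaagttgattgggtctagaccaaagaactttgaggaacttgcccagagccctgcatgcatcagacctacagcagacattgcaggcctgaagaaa
CD86: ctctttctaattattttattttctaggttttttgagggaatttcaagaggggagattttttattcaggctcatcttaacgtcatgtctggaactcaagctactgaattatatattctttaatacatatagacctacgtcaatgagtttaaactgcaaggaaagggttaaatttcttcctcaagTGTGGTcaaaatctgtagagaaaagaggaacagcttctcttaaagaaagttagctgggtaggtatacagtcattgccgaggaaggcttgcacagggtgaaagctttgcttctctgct

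These letters were counted on both strands in the promoters of 11301 tested genes, of which 1339 had a called log2 rise of 1 or more and 127 a called fall of that size. AAATCA or its reverse complement TGATTT was in 7.36% of all promoters, 11.1% of those of genes that rose and 7.09% of those of genes that fell. AGATAA or TTATCT was in 5.47%, 8.51% and 7.09% of the same promoter sets. TGTGGT or ACCACA was in 9.83%, 11.2% and 12.6%. The PU.1-type letters GAGGAAGT or ACTTCCTC were in 2.76% of all promoters and 3.44% of those of genes that rose, and in 0 of the 127 others. The C/EBP-type letters TTGCGCAA, which read the same on both strands, were in 0.221% of all promoters and 0.224% of those of genes that rose. The promoters of genes that rose held fewer CpG dinucleotides (median 20) than all promoters (median 26), and their median GC content was 63.7% against 65.0%. These sets were not matched for base composition or expression, and a match of letters is a description of the sequence, not of binding.

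The 4 libraries held 32.8 to 36.9 M estimated counts each. Over 9354 well-expressed genes, the log2 difference between replicates had an SD of 0.108 in the Corin pair but 0.361 in the DMSO pair, and the difference between the DMSO libraries followed the GC content of the genes across genes (Pearson r = 0.811). Counts of calls in a list are given also for the fit of the 4 libraries alone, or with 1 library left out, where they moved by more than 1.5 times and by at least 3 genes, and smaller moves are not all given. In bulk RNA, fewer cells of a type and less RNA per cell cannot be told apart.

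Among genes at modest levels Corin raised more than it lowered, and among strongly transcribed genes it lowered more than it raised, mostly by small steps. By edgeR's quasi-likelihood test at a Benjamini-Hochberg adjusted p under 0.05, 37.9% of tested genes were called, 20.5% higher and 17.3% lower. A rise of at least 1 on the log2 scale was called for 11.9% of genes and a fall of that size for 1.21%. Among genes at 1 to 10 CPM in the cells given all-trans retinoic acid (ATRA), which took no part in the comparison, 24.7% rose and 7.08% fell. Among those over 100 CPM the order was inverted, with 10.5% higher and 34.7% lower, and only 10 of those 2165 genes rose and 9 fell by 1 or more. Protein-coding genes were called about as often higher (21.9% of 12902) as lower (22.0%), whereas of 2737 long noncoding RNA genes 21.7% rose and 3.98% fell. Of these noncoding genes 866 were below the low-count cutoff in a DMSO library, and many could be tested only through libraries where they were higher. The class under 0.3 CPM in the ATRA libraries is left out of this description, because its genes could be tested only through libraries where they were higher. For the same reason, gene lists are also given below for the 14928 genes that exceeded the low-count cutoff in both ATRA libraries, of which 17.2% rose and 20.2% fell, with a median log2 fold change of -0.06. Within these, a rise of 1 or more was called for 7.18% and a fall of that size for 1.30%, and of 1901 long noncoding genes 19.1% rose and 5.47% fell. A list count given below without a share is to be set beside 20.5% higher and 17.3% lower over all tested genes. With only the 4 libraries in the fit, 14.6% of genes rose and 7.99% fell, so that 64.6% of the calls were rises against 54.2% with all 8 libraries. Without Corin library 1 or 2 there were 3878 and 3636 calls, and without DMSO library 1 or 2 there were 9030 and 9520.

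**Figure D1:**
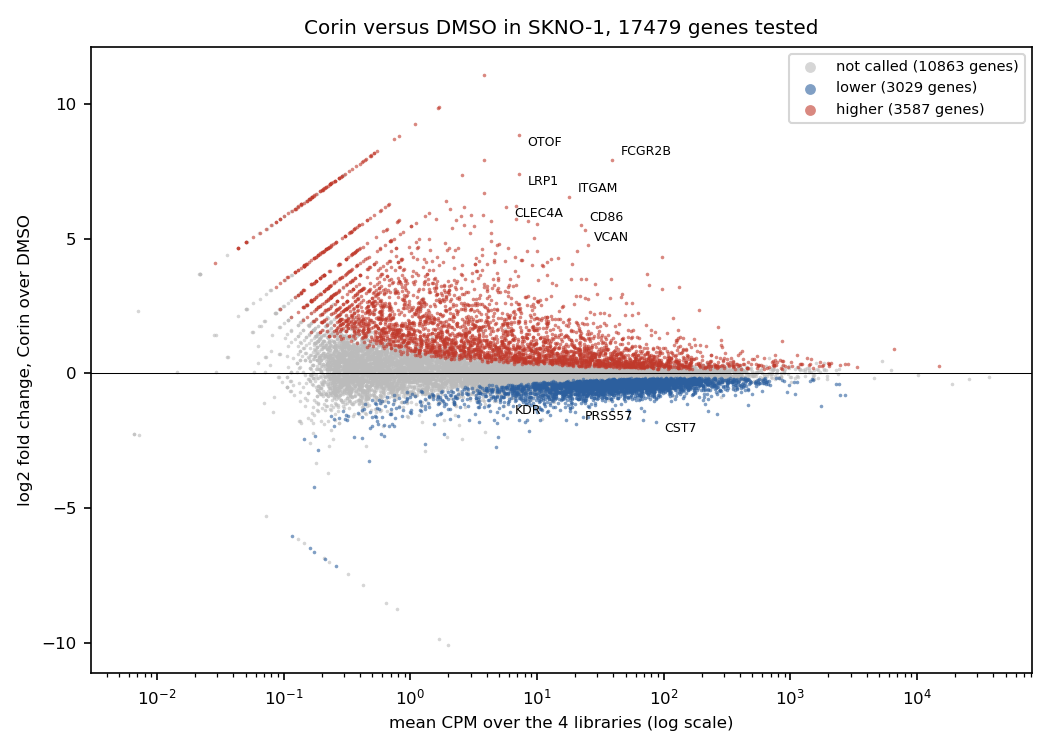
Log2 fold change of Corin over DMSO in SKNO-1 (y axis) against the mean level in CPM over the 4 libraries (x axis, log scale) for the 17479 genes tested. Coloured points are genes called higher or lower, grey points are not called; large rises lie at low mean levels, and falls of 1 or more are few.

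**Figure D2:**
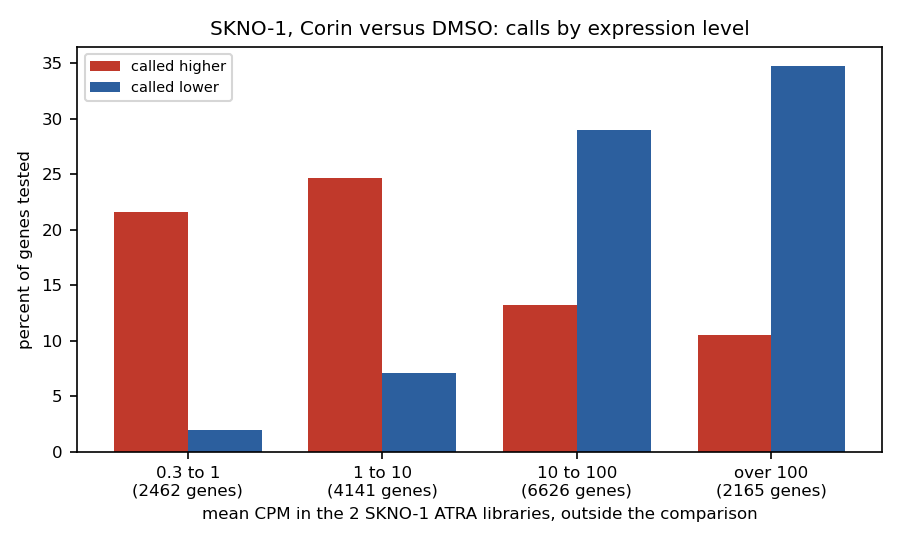
Share of tested genes called higher and lower with Corin (y axis, percent) by the level of the gene in the ATRA libraries (x axis, CPM classes). The share that rose is above the share that fell up to 10 CPM and below it in both classes above 10 CPM. The class of 0.3 to 1 CPM lies next to the low-count cutoff of 0.293 CPM. Some of its genes may have been tested only through libraries where they were higher.

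Many of the largest rises among well-counted protein-coding genes belonged to surface receptors and adhesion molecules of myeloid and lymphoid cells. The largest of all was that of OTOF (log2 fold change 8.85), a calcium sensor described below, which is not of that kind. FCGR2B, the inhibitory Fc receptor for IgG (chromosome 1, 161663143 to 161678654 on GRCh38), had 0.289 and 0.342 CPM in the DMSO libraries and 81.0 and 76.0 CPM in the Corin libraries. Its log2 fold change was 7.94 ± 0.129 (SE), with an adjusted p of 8.27e-08, and because near-identical Fc receptor genes share reads its count is a model estimate. LRP1, a large endocytic receptor, had 0.0289 and 0.132 CPM with DMSO and 14.5 and 14.2 CPM with Corin. ITGAM, which encodes the CD11b integrin chain used as a marker of myeloid maturation (chromosome 16, 31259967 to 31332892), had 0.434 and 0.316 CPM with DMSO and 37.1 and 33.9 CPM with Corin. In each of these genes both Corin libraries lay far above both DMSO libraries, a separation that 65.0% of all tested genes showed at some size and in either direction.

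CD86, the costimulatory ligand for T cells (chromosome 3, 122055362 to 122121139), was at 0.925 and 0.974 CPM with DMSO and at 46.8 and 40.0 CPM with Corin (log2 fold change 5.51 ± 0.143, adjusted p = 7.14e-07). VCAN, the proteoglycan versican that classical monocytes make, was at 1.24 and 1.11 CPM with DMSO and at 49.5 and 44.1 CPM with Corin. MS4A4A, a membrane protein of macrophages, was at 0.318 and 0.342 CPM with DMSO and at 17.5 and 15.9 CPM with Corin. These 3 monocyte-type genes thus came from about 1 CPM or less to between 15.9 and 49.5 CPM.

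Other large rises were those of CLEC4A, an inhibitory C-type lectin (log2 fold change 6.19), CD22, a sialic acid-binding lectin of B cells (5.73), and ADAM28, a membrane metalloprotease (5.56). MPZL2, an adhesion molecule, rose by 6.22 on the log2 scale and TNNT1, the slow skeletal muscle troponin T, by 5.03. CLEC4A had 0 and 0.290 CPM with DMSO and CD22 had 0.405 and 0.105 CPM, against 11.0 and 11.5 CPM and 13.7 and 13.1 CPM with Corin.

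A class of genes went from almost no counts to clear expression. There were 34 genes with at most 3 counts over both DMSO libraries and at least 1 CPM in both Corin libraries, 26 of them protein-coding and 8 long noncoding, and 0 genes showed the reverse. FCRLA, an Fc receptor-like protein of B cells that adjoins the FCGR cluster, had 0 counts with DMSO and 532 with Corin, at least 186-fold higher taking 3 counts over the group as the floor. CNR2, the cannabinoid receptor of immune cells, went from 0 to 228 counts, at least 79.8-fold higher. C3, the central complement component, had 2 counts with DMSO and 355 with Corin, a ratio of 186 (exact 95% interval 51.2 to 1544, counting error only). OTOF, a calcium sensor of the ferlin family, had the largest ratio among those with any DMSO count, at 519.5 (143 to 4296). CCR6, a chemokine receptor of lymphocytes and dendritic cells, had 3 and 137 counts, a ratio of 47.9 (16.1 to 235). TLR10, a Toll-like receptor of B cells, had 3 and 84 counts, a ratio of 29.4 (9.72 to 145). Immune receptors stood beside genes of other tissues in this class, such as NID1, a basement membrane protein (1 and 87 counts), and RPGRIP1, a photoreceptor cilium protein (0 and 151 counts, at least 52.8-fold higher).

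**Figure D3:**
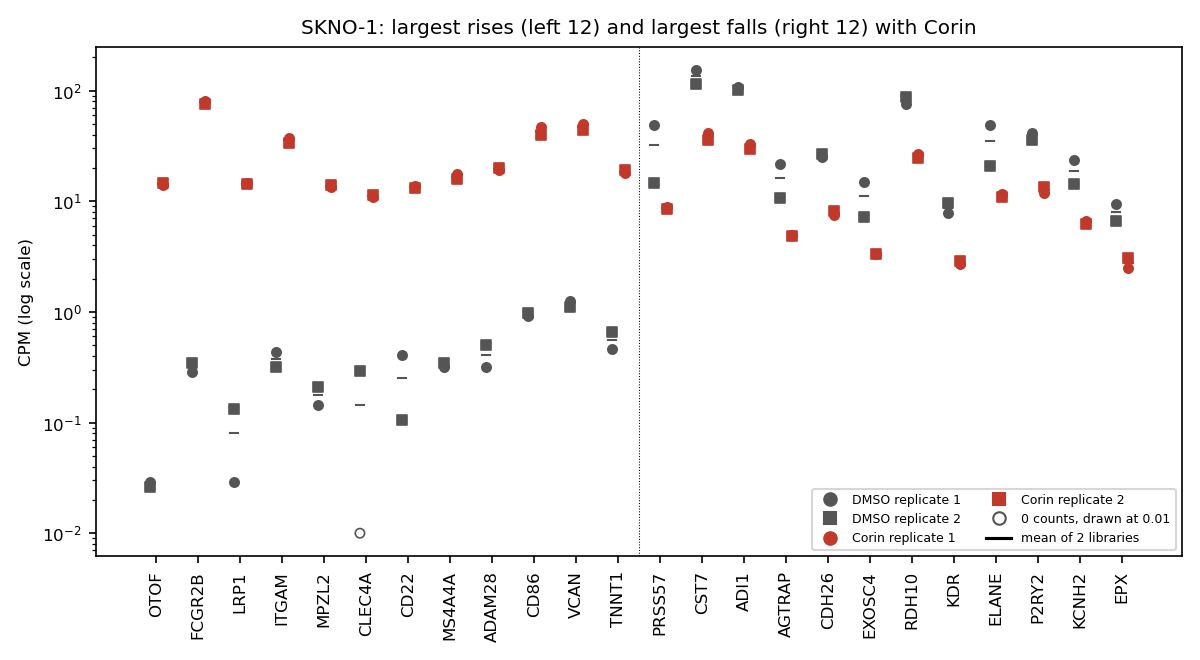
Level in CPM (y axis, log scale) of 12 protein-coding genes that rose most and 12 that fell most (x axis), 1 point for each library and a bar at the mean of each group. In the rises the Corin points lie 1 or more powers of 10 above the DMSO points, while in the falls the gap is smaller and PRSS57, AGTRAP, EXOSC4 and ELANE have DMSO points far apart.

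Monocyte and macrophage genes rose together. Of 32 listed genes 23 were called higher and 1 lower, 1 did not pass the test, and 7 had too few counts to be tested. Among the 17 that exceeded the cutoff in both ATRA libraries 15 rose and 1 fell, with a median log2 fold change of 1.70 against -0.06 for all such genes. LYZ, the lysozyme of monocytes and granulocytes, was at 59.5 and 64.2 CPM with DMSO and at 326 and 306 CPM with Corin (2.35 ± 0.0704, adjusted p = 1.09e-06). CD68, a lysosomal glycoprotein of macrophages, was at 6.65 and 4.77 CPM with DMSO and at 35.4 and 31.7 CPM with Corin. The summed level of the list was 286 and 288 CPM in the DMSO libraries and 962 and 895 CPM in the Corin libraries. LYZ alone made up 326 and 306 CPM of the Corin sums.

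ITGAX, the CD11c integrin chain, rose by 4.75 on the log2 scale, and ITGB2, the shared beta chain that pairs with CD11b and CD11c, by 1.70. CSF1R, the receptor that monocytes need for survival, was at 0.318 and 0.342 CPM with DMSO and at 4.10 and 3.14 CPM with Corin. LY96, the co-receptor of TLR4, rose from 0.289 and 0.158 CPM to 8.83 and 7.90 CPM, whereas TLR4 itself fell by 0.38, from 50.1 and 53.5 CPM to 41.2 and 38.2 CPM. The TLR4 call was lost with only the 4 libraries in the fit. CD14, the defining monocyte co-receptor, stayed near the limit of counting, with 0 counts in the DMSO libraries and 7 in the Corin libraries, at least 2.44-fold higher. CD163, a scavenger receptor of mature macrophages, had 2 counts and 50 counts, a ratio of 26.2 (6.89 to 223). MARCO, FCN1 and TREM2, other macrophage and monocyte markers, had 0 counts in all 4 libraries. Of the 6 subunits of the phagocyte oxidase, 2 were called higher and 0 lower, and the catalytic subunit CYBB had 0 counts with DMSO and 12 with Corin, at least 4.19-fold higher. In the fit of 4 libraries, or without either Corin library, 1 of the oxidase genes rose. Without DMSO library 1, 4 rose, and without DMSO library 2, 2 rose and 3 fell.

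Among 29 listed transcription factors of the myeloid lineage 6 rose (20.7%), 5 fell (17.2%), 10 did not pass the test and 8 had too few counts. These shares count the 8 factors that were not tested. The 6 rises and 5 falls were among 21 tested, beside 20.5% and 17.3% of all tested genes. Of the 17 above the cutoff in both ATRA libraries 4 rose and 5 fell, with a median log2 fold change of 0.10. ID3 and ID2, which block basic helix-loop-helix factors, rose from 0.173 and 0.158 CPM to 9.09 and 7.90 CPM and from 19.7 and 21.1 CPM to 50.7 and 48.8 CPM. CEBPE, a factor of late granulocyte maturation, had 16.6 and 8.53 CPM with DMSO and 5.64 and 6.20 CPM with Corin (-1.08 ± 0.272, adjusted p = 0.0158). Both Corin libraries were below both DMSO libraries, which were far apart. SPI1, which encodes PU.1, had a log2 fold change of -0.32 (adjusted p = 0.307) and CEBPA one of 0.17 (adjusted p = 0.465). With only the 4 libraries compared, or without either Corin library, 1 factor fell.

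Antigen presentation by MHC class II rose as a pathway. Of 14 listed genes 9 rose, 0 fell, 1 did not pass the test and 4 had too few counts. All 7 that exceeded the cutoff in both ATRA libraries rose, with a median log2 fold change of 1.33. CIITA, the master activator of the class II genes, was at 21.4 and 19.2 CPM with DMSO and at 33.8 and 34.9 CPM with Corin (0.76 ± 0.0877, adjusted p = 0.000451). HLA-DRA, the alpha chain of HLA-DR, went from 33.0 and 29.5 CPM to 79.7 and 77.0 CPM. CD74, the invariant chain that guards the peptide groove, went from 112 and 88.8 CPM to 226 and 206 CPM. HLA-DMA, part of the chaperone that loads peptide, rose by 3.52 on the log2 scale, from 1.30 and 0.684 CPM to 11.2 and 11.5 CPM, and HLA-DPA1 rose by 2.55. HLA genes are highly similar, so their counts are model estimates. The count of 9 rises was the same with only the 4 libraries compared and without either Corin library.

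MHC class I genes split. Among 18 listed genes 6 rose and 5 fell. These were among 16 above the cutoff in both ATRA libraries, beside 17.2% and 20.2% of all such genes. HLA-B, a classical class I heavy chain, went from 14.9 and 10.6 CPM to 37.5 and 37.9 CPM, HLA-E rose by 1.07, and the light chain B2M rose by 0.52. The peptide-loading chaperone CALR fell by 0.39, and the proteasome subunit PSMB10 fell by 0.89 (adjusted p = 0.0464). In the fit of 4 libraries 5 genes rose and 1 fell, and without Corin library 1 or 2 the falls numbered 2 and 1.

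Interferon-stimulated genes rose in part. Of 33 listed genes 16 rose, 2 fell, 12 did not pass the test and 3 had too few counts, and of the 25 above the cutoff in both ATRA libraries 13 rose with a median over those 25 of 0.48. BST2, the tetherin that holds virus particles at the cell surface, was at 2.23 and 1.13 CPM with DMSO and at 41.5 and 37.2 CPM with Corin (4.56 ± 0.240, adjusted p = 1.28e-05). RSAD2, the antiviral enzyme viperin, went from 18.0 and 18.2 CPM to 83.0 and 78.9 CPM. IFIT2, which binds foreign RNA, went from 1.91 and 2.48 CPM to 10.6 and 10.8 CPM. In BST2, RSAD2 and IFIT2 both Corin libraries were above both DMSO libraries.

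Several granule genes of neutrophils fell while the monocyte genes rose. Among 25 listed genes 5 fell, 2 rose, 4 did not pass the test and 14 had too few counts. Of the 10 above the cutoff in both ATRA libraries 5 fell and 1 rose, beside 20.2% and 17.2% of all such genes. Their median log2 fold change was -0.24 against -0.06. MPO, the myeloperoxidase of azurophil granules, was at 3652 and 2620 CPM with DMSO and at 1880 and 1756 CPM with Corin (-0.79 ± 0.136, adjusted p = 0.00308). ELANE, neutrophil elastase, was at 48.9 and 20.8 CPM with DMSO and at 11.5 and 11.0 CPM with Corin, a log2 fold change of -1.63 that was no longer called without either Corin library (-1.67 and -1.60). PRSS57, a serine protease of the same granules, was at 49.3 and 14.7 CPM with DMSO and at 8.89 and 8.49 CPM with Corin. Its log2 fold change of -1.88 kept its size but was not called with the 4 libraries alone (-1.87) or without Corin library 1 or 2 (-1.92 and -1.85). The size of both falls rested on the vehicle libraries: without DMSO library 1 or 2 it was -0.79 and -2.52 for PRSS57, and -0.91 and -2.14 for ELANE. CST7, cystatin F, which inhibits granule cathepsins, fell from 153 and 116 CPM to 41.2 and 36.0 CPM (-1.80 ± 0.132). In these 4 genes no Corin library reached a DMSO library, and the DMSO libraries of ELANE and PRSS57 differed from each other by more than 2-fold. In this list 3 genes fell in the fit of 4 libraries and 2 without either Corin library, and 4 rose without DMSO library 1.

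Eosinophil, basophil and mast cell genes moved in both directions. Of 25 listed genes 11 rose and 8 fell, 3 did not pass the test and 3 had too few counts. Among the 16 above the cutoff in both ATRA libraries 6 rose and 8 fell, beside 17.2% and 20.2% of all such genes. Their median log2 fold change was -0.22. Several eosinophil granule proteins fell: CLC, the Charcot-Leyden crystal protein, from 21.8 and 21.7 CPM to 8.55 and 8.43 CPM, PRG2, the major basic protein, from 65.5 and 46.0 CPM to 23.1 and 21.2 CPM, and EPX, eosinophil peroxidase, from 9.46 and 6.69 CPM to 2.51 and 3.06 CPM. RNASE2 and RNASE3, which encode eosinophil ribonucleases, fell by 0.41 and 0.71 on the log2 scale. SIGLEC8, a surface lectin of eosinophils and mast cells, rose instead, from 0.145 and 0.158 CPM to 1.28 and 1.44 CPM (3.14). Several genes shared by basophils and mast cells rose. FCER1A, the IgE receptor alpha chain, was at 0.839 and 0.790 CPM with DMSO and at 8.66 and 9.46 CPM with Corin (3.47 ± 0.203, adjusted p = 1.97e-05). CPA3, mast cell carboxypeptidase, went from 9.28 and 10.0 CPM to 24.2 and 25.9 CPM, and HDC, which makes histamine, rose by 1.85. IL1RL1, the receptor of interleukin 33, and HPGDS, a prostaglandin synthase, rose by 2.94 and 2.56. KIT, the stem cell factor receptor that mast cells need, did not follow them and fell from 418 and 459 CPM to 297 and 282 CPM.

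**Figure D4:**
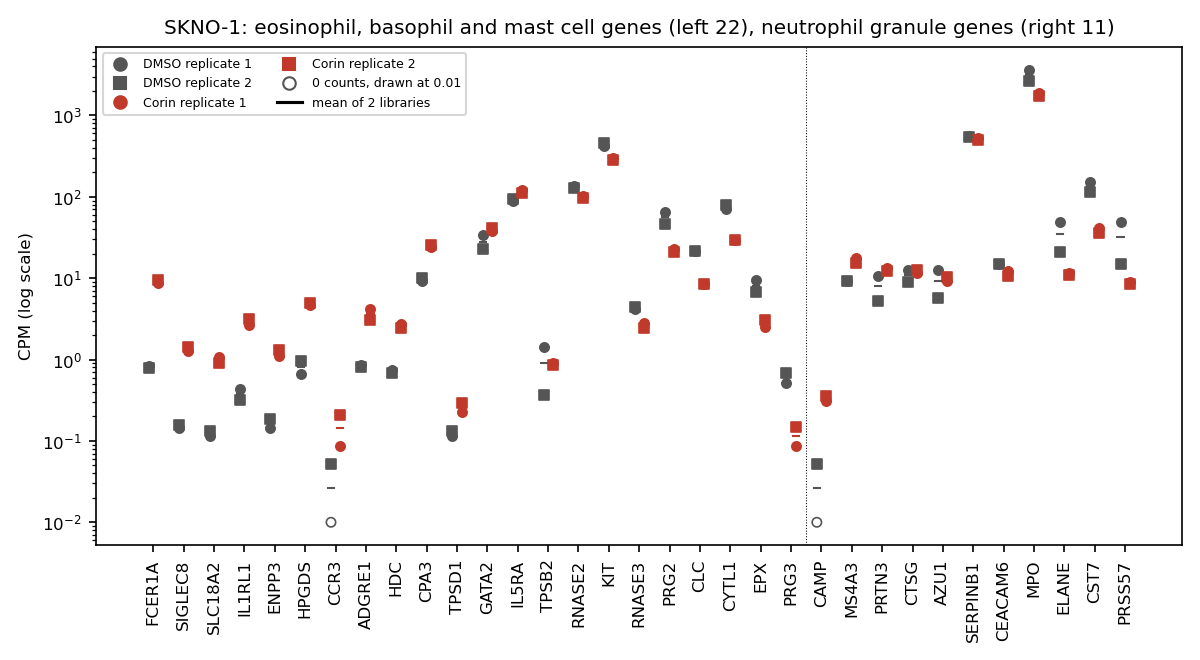
Level in CPM (y axis, log scale) of the tested eosinophil, basophil and mast cell genes and neutrophil granule genes (x axis), 1 point for each library of the DMSO and Corin groups and a bar at the mean. MPO, ELANE, PRSS57, CST7, CLC, PRG2 and EPX lie lower with Corin, and FCER1A, CPA3, HDC, HPGDS and IL1RL1 lie higher.

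Megakaryocyte genes rose in part, and erythroid genes went both ways. Of 30 megakaryocyte and platelet genes 8 rose, 0 fell, 8 did not pass the test and 14 had too few counts. Of the 12 above the cutoff in both ATRA libraries 6 rose and 0 fell, beside 17.2% and 20.2% of all such genes. GFI1B, the repressor needed for platelet and red cell formation, was at 0.116 and 0 CPM with DMSO and at 4.27 and 3.85 CPM with Corin (6.11 ± 0.490, adjusted p = 7.60e-05). ITGA2B, the platelet fibrinogen receptor chain, went from 12.3 and 7.11 CPM to 35.6 and 36.0 CPM. SELP, the platelet and endothelial selectin, had 3 counts and 191 counts, a ratio of 66.8 (22.5 to 327), and MMRN1, a platelet granule protein, rose by 4.13. Of 31 erythroid genes 4 rose, 2 fell, 3 did not pass and 22 had too few counts, 13 of these with 0 counts in all 4 libraries. Of the 8 erythroid genes above the cutoff in both ATRA libraries 3 rose and 2 fell, beside the same shares. KLF1, the erythroid activator, fell by 1.55. GATA1, the factor shared by both lineages, was at 0.527 to 0.694 CPM with DMSO and 0.513 to 0.558 CPM with Corin (adjusted p = 0.695). Without DMSO library 2, 4 erythroid genes fell.

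Stem and progenitor genes rose more often than they fell. Of 26 listed genes 10 rose, 3 fell, 4 did not pass and 9 had too few counts. Of the 14 above the cutoff in both ATRA libraries 7 rose and 3 fell, beside 17.2% and 20.2% of all such genes. Their median log2 fold change was 0.32. Of the members tested, 3 were below the cutoff in a DMSO library. MYB, a driver of progenitor growth, went from 548 and 605 CPM to 939 and 912 CPM (0.68 ± 0.0606, adjusted p = 0.000127). CD34, the progenitor surface marker, went from 0.260 and 0.237 CPM to 1.85 and 1.88 CPM, ERG rose by 1.24 and CD38 by 0.74. LMO2, a bridging factor of blood stem cells, fell from 99.2 and 87.7 CPM to 40.2 and 37.2 CPM (-1.27 ± 0.0797), and MYC fell from 447 and 383 CPM to 316 and 308 CPM. MYC was no longer called without 1 of the Corin libraries (-0.40).

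Some lymphoid genes rose from near silence. Of 26 T and NK cell genes 10 rose, 0 fell, 4 did not pass and 12 had too few counts. All 10 were below the cutoff in an ATRA library, and of the 4 genes above it there 0 were called. GZMA, the cytotoxic protease granzyme A, was at 0.0868 and 0.158 CPM with DMSO and at 7.15 and 7.73 CPM with Corin. CD7, an early T and NK marker, had 3 and 62 counts (ratio 21.7, interval 7.09 to 108), and CD2, an adhesion receptor of T cells, had 0 and 45 counts, at least 15.9-fold higher. CD3E, CD3G and CD5, which define T cells, and GZMB and GNLY of NK cells had 0 counts in all 4 libraries. The count of 10 fell to 7 and 6 without Corin library 1 and 2. Of 17 B lymphoid genes 7 were tested, of which 3 rose and 1 fell, and another 7 had 0 counts throughout. Of the 5 above the cutoff in both ATRA libraries 1 rose and 1 fell, beside 17.2% and 20.2% of all such genes. IGLL1, part of the surrogate light chain of B cell precursors, fell from 129 and 74.2 CPM to 37.7 and 39.4 CPM.

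The targets of Corin themselves changed little at the RNA level. Of 20 genes of the LSD1, HDAC and CoREST group and its recruiters, 4 rose and 1 fell, 14 did not pass the test, and INSM1 had 0 counts. The 4 rises and 1 fall were among 19 tested, beside 20.5% and 17.3% of all tested genes. Of the 17 above the cutoff in both ATRA libraries 2 rose and 1 fell, beside 17.2% and 20.2% of all such genes. KDM1A was at 269 and 267 CPM with DMSO and at 270 and 261 CPM with Corin (log2 fold change -0.01, adjusted p = 0.855). HDAC1 (-0.12, adjusted p = 0.123), HDAC2 (-0.03, adjusted p = 0.802) and the scaffold RCOR1 (-0.07, adjusted p = 0.526) did not pass either. GFI1, at 370 and 371 CPM with DMSO and 399 and 411 CPM with Corin, had an adjusted p of 0.0722, whereas its paralog GFI1B rose from near 0. The other rises were SNAI1 (1.64), PHF21A (0.38) and ZMYM2 (0.27), and CTBP1 fell by 0.56. Of these, PHF21A, ZMYM2 and CTBP1 were not called with only the 4 libraries compared, and without either Corin library only GFI1B kept its call among the rises. Without DMSO library 1 or 2, 7 and 8 rose and 6 and 4 fell.

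Among the 7 RUNX and ETO family genes RUNX1 and RUNX1T1 rose by 0.52 and 0.45 and CBFB, the partner subunit of RUNX proteins, fell by 0.36. All 7 were above the cutoff in both ATRA libraries, and 17.2% of all such genes rose and 20.2% fell. Gene-level counts cannot separate the fusion transcript from RUNX1 and RUNX1T1. With only the 4 libraries compared, 0 of the 7 were called. RUNX1T1 (adjusted p = 0.0391) was not called with a replicate block (0.45), without DMSO library 1 (0.22) or without either Corin library (0.45 and 0.44).

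Some genes of tissues other than blood rose, a part of them from near 0. Of 45 neuronal genes with REST sites 4 rose, 2 fell, 8 did not pass and 31 had too few counts, 17 of them with 0 counts in all 4 libraries. Among the 7 above the cutoff in both ATRA libraries 1 rose and 2 fell, beside 17.2% and 20.2% of all such genes. Their median log2 fold change was -0.03. L1CAM, a neural adhesion molecule, had 0 and 66 counts, at least 23.1-fold higher. KCNH2, a potassium channel, and CELSR3, an atypical cadherin, were already expressed and fell by 1.54 and 0.91. REST itself was at 174 and 232 CPM with DMSO and at 191 and 190 CPM with Corin (adjusted p = 0.580). Without DMSO library 1, 7 of the neuronal genes rose.

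Of 20 endothelial genes 8 rose and 1 fell. PECAM1, an adhesion molecule shared with platelets and monocytes, went from 6.97 and 8.19 CPM to 23.2 and 22.6 CPM, and CD93 from 2.83 and 3.79 CPM to 12.4 and 13.1 CPM. PLVAP, a protein of endothelial diaphragms, had 0 and 35 counts, at least 12.3-fold higher, while KDR, a receptor of VEGF, fell by 1.65. Epithelial genes showed 4 rises among 26, with the tight junction gene CLDN7 at 0 and 32 counts (at least 11.2-fold higher). Muscle genes showed 4 among 26, with TTN, the giant sarcomere protein, going from 13.4 and 17.9 CPM to 52.0 and 57.8 CPM. Collagens showed 8 rises among 44, led by COL8A2 (3.13), with 5 rises without either Corin library. Germline and cancer-testis genes showed 2 among 32, PRAME (0.43) and MAGEB2 (0.69), and 21 of that list had 0 counts throughout. Clustered protocadherins showed 2 rises among 53, both lost with the 4 libraries alone, and potassium channels 8 rises and 4 falls among 95. Among members above the cutoff in both ATRA libraries, 6 of 8 endothelial, 6 of 8 collagen, 2 of 4 epithelial, 2 of 5 muscle and 5 of 19 potassium channel genes rose, beside 17.2% of all such genes.

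**Figure D5:**
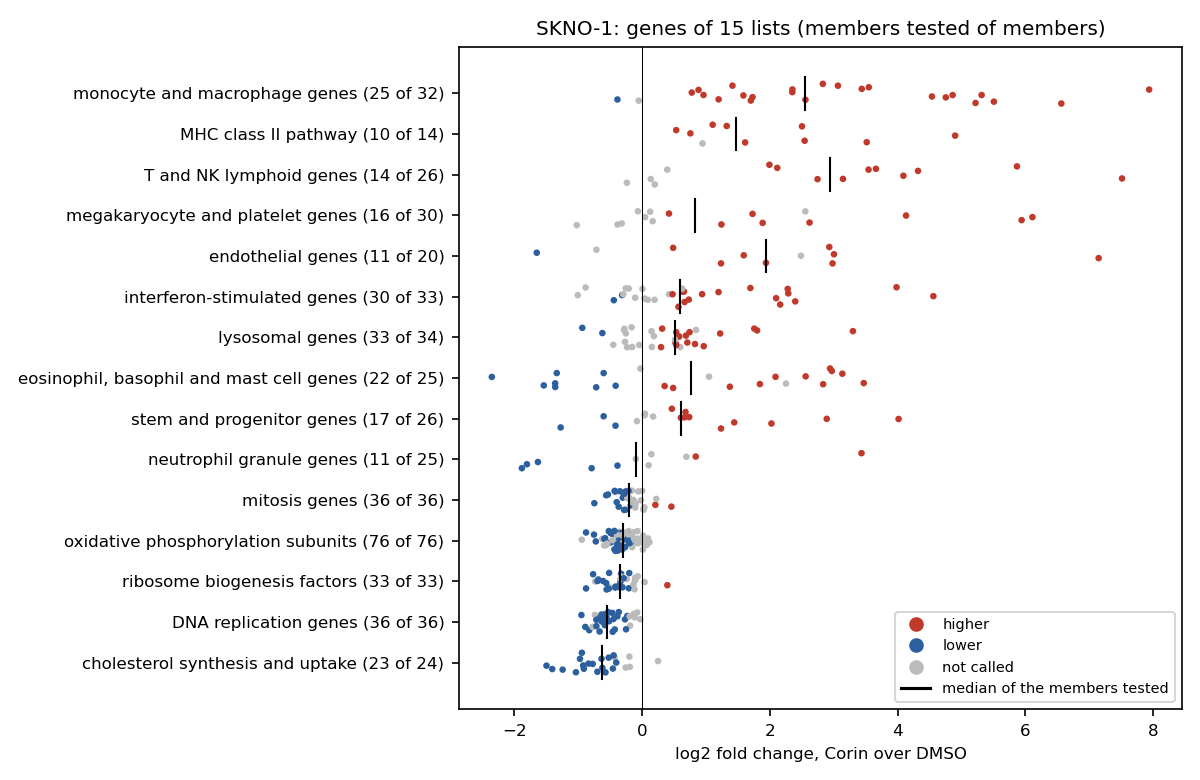
Log2 fold change of Corin over DMSO (x axis) for the tested members of the gene lists (y axis), 1 point for each gene, coloured by call, with the median marked. Monocyte and MHC class II genes lie to the right, and DNA replication and cholesterol genes to the left of 0.

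Among protein-coding genes that averaged 5 CPM or more, the largest falls were smaller than the largest rises, reaching -1.88 on the log2 scale for PRSS57 (-0.79 and -2.52 without DMSO library 1 or 2) against 8.85 for OTOF. Beside the granule genes above, ADI1, a dioxygenase of methionine salvage, was at 108 and 102 CPM with DMSO and at 33.2 and 29.7 CPM with Corin (-1.74 ± 0.0840, adjusted p = 8.48e-06). RDH10, which oxidises retinol on the way to retinoic acid, was at 75.1 and 86.9 CPM with DMSO and at 26.5 and 24.7 CPM with Corin. P2RY2, a receptor for extracellular nucleotides, went from 41.3 and 35.6 CPM to 11.8 and 13.3 CPM. CDH26, a cadherin, fell by 1.73. AGTRAP, which binds the angiotensin receptor, had 21.8 and 10.8 CPM with DMSO and 4.96 and 4.82 CPM with Corin, and EXOSC4, a subunit of the RNA exosome, fell by 1.73 with DMSO values as far apart. ADI1, RDH10, P2RY2 and CDH26 had tight replicates in both groups.

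DNA replication genes fell as a group. Of 36 listed genes 27 fell, 0 rose and 9 did not pass the test, with a median log2 fold change of -0.54. All 36 were above the cutoff in both ATRA libraries. MCM5, a subunit of the replicative helicase, was at 140 and 88.6 CPM with DMSO and at 60.0 and 58.4 CPM with Corin (-0.95 ± 0.181, adjusted p = 0.00487). POLA2, a subunit of the primase complex, went from 46.2 and 41.9 CPM to 23.5 and 24.2 CPM, and CDC45, which activates the helicase, from 68.3 and 57.6 CPM to 36.6 and 34.6 CPM. CCNE1, the cyclin that starts S phase, fell by 0.63. In the fit of 4 libraries 19 of the 36 fell.

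Of 36 mitosis genes 17 fell and 2 rose, with a median of -0.21. CCNB1, the mitotic cyclin, went from 187 and 188 CPM to 130 and 130 CPM, and CCNA2 fell by 0.56, while NUSAP1, a spindle protein, rose by 0.46. MKI67, the proliferation marker, was at 560 and 755 CPM with DMSO and at 541 and 558 CPM with Corin (adjusted p = 0.128). With the 4 libraries alone 6 genes fell, and 9 and 7 without Corin library 1 and 2. Of 8 cyclin-dependent kinase inhibitors 4 rose and 1 fell. Of the 6 above the cutoff in both ATRA libraries 3 rose and 1 fell, beside 17.2% and 20.2% of all such genes. CDKN1A, which encodes p21, went from 4.74 and 4.79 CPM to 20.3 and 17.1 CPM (1.97 ± 0.149, adjusted p = 6.19e-05), CDKN1C from 0.376 and 0.316 CPM to 1.79 and 2.09 CPM, and CDKN2C fell by 0.53.

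Among 24 p53 target genes, 20 of them tested, 7 rose and 2 fell, beside 20.5% and 17.3% of all tested genes. TNFRSF10B, a death receptor for TRAIL, went from 10.4 and 9.29 CPM to 45.4 and 46.6 CPM, and TIGAR, a fructose bisphosphatase, rose by 1.73. MDM2, the ubiquitin ligase of p53 and itself a target, went the other way, from 155 and 188 CPM to 125 and 121 CPM. In the BCL2 family of 16 genes, 14 of them tested, 2 rose and 5 fell, beside the same shares. BMF, a death-promoting member, went from 4.77 and 4.29 CPM to 19.8 and 19.0 CPM, and the survival members BCL2L1, BCL2 and MCL1 fell by 0.71, 0.42 and 0.18. With the 4 libraries alone 1 member fell, with 3 and 2 without Corin library 1 and 2, and with 9 without DMSO library 2. Without DMSO library 2, 7 of the p53 targets fell.

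Cholesterol synthesis fell as a pathway. Of 24 listed genes 18 fell, 0 rose, 5 did not pass the test and 1 had 0 counts, with a median log2 fold change of -0.63. HMGCS1, which makes the precursor of mevalonate, was at 375 and 399 CPM with DMSO and at 139 and 136 CPM with Corin (-1.49 ± 0.0580, adjusted p = 3.34e-06). LSS, which closes the sterol rings, went from 89.6 and 64.7 CPM to 28.7 and 29.7 CPM, and SQLE, which makes squalene epoxide, from 290 and 301 CPM to 155 and 147 CPM. SREBF2, the transcription factor that drives these genes, was at 140 and 118 CPM with DMSO and at 112 and 113 CPM with Corin (adjusted p = 0.0951). Among 13 LXR targets and efflux genes 6 rose and 1 fell. ABCA1 and ABCG1, which export cholesterol, went from 7.52 and 11.3 CPM to 27.6 and 28.1 CPM and from 18.1 and 15.6 CPM to 35.0 and 32.9 CPM, while SCD, a desaturase, fell by 0.76. Cholesterol export and synthesis genes thus moved in opposite directions, and 16 of the 24 synthesis and uptake genes fell in the fit of 4 libraries.

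Of 76 subunits of oxidative phosphorylation 38 fell, 0 rose and 38 did not pass the test, with a median of -0.30. NDUFB2, of complex I, went from 38.1 and 31.0 CPM to 18.0 and 19.7 CPM. The count of falls depended on the libraries: it was 16 with the 4 libraries alone, 65 without DMSO library 2, 44 without DMSO library 1 (with 3 rises), and 25 and 17 without Corin library 1 and 2. Of 22 glycolysis enzymes, 21 of them tested, 5 rose and 5 fell, beside 20.5% and 17.3% of all tested genes. ENO2, an enolase usually of neurons, rose by 2.86 and LDHA, lactate dehydrogenase, fell by 0.64. Without DMSO library 1, 9 glycolysis enzymes rose, without DMSO library 2, 14 fell, and without Corin library 2, 2 rose and 2 fell. With Corin library 1 left out 3 rose and 3 fell. Of 9 heme synthesis enzymes 0 rose and 2 fell, with 0 called in the fit of 4 libraries or without either Corin library, and 4 lower without DMSO library 2.

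Lysosomal genes rose more often than they fell. Of 34 listed genes 16 rose, 2 fell, 15 did not pass and 1 had 0 counts. Of the 31 above the cutoff in both ATRA libraries 15 rose and 2 fell, beside 17.2% and 20.2% of all such genes. GRN, progranulin, was at 42.2 and 22.1 CPM with DMSO and at 127 and 96.9 CPM with Corin (1.80 ± 0.272, adjusted p = 0.00172). CTSH, a cathepsin, went from 20.9 and 17.0 CPM to 65.8 and 62.4 CPM, and PSAP, the precursor of sphingolipid activators, rose by 0.57. TFEB, the factor that drives lysosomal genes, went from 0.116 and 0.0790 CPM to 0.912 and 1.06 CPM. MCOLN1, a lysosomal calcium channel, fell by 0.93. Without DMSO library 2, 16 of these genes rose and 10 fell.

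Ribosome biogenesis factors fell more often than they rose. Of 33 listed genes 19 fell and 1 rose, with a median of -0.34. UTP20, of the small subunit processome, went from 94.2 and 102 CPM to 55.9 and 51.0 CPM, GAR1, of the pseudouridylation complex, from 31.5 and 36.4 CPM to 20.5 and 19.5 CPM, and RRP1B rose by 0.40. With the 4 libraries alone 9 fell, with 11 without Corin library 2 and 29 without DMSO library 2. Ribosomal protein genes moved up by small amounts, 32 of 84 called higher and 1 lower, with a median of 0.17. That result rested on the vehicle libraries, since 74 rose and 3 fell without DMSO library 1, 34 rose and 20 fell without DMSO library 2, and 11 rose with the 4 libraries alone. Without Corin library 1 or 2, 11 and 21 rose.

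Replication-dependent histone genes gave no stable direction. Of 69 listed genes 1 rose, 6 fell, 52 did not pass and 10 had too few counts. Without DMSO library 1, 34 rose and 7 fell, with a median log2 fold change of 0.26, and without DMSO library 2, 2 rose and 50 fell, with a median of -0.81. With the 4 libraries alone 1 fell, and without either Corin library 0 fell. Their summed level was 6518 and 3493 CPM in the DMSO libraries and 4237 and 4137 CPM in the Corin libraries, so both Corin sums lay between the DMSO sums. Of 511 ZNF genes 43 rose and 119 fell with a median of -0.15, and 22 rose and 39 fell with the 4 libraries alone. Of the 426 above the cutoff in both ATRA libraries 40 rose and 118 fell, beside 17.2% and 20.2% of all such genes. Without Corin library 1 or 2, 22 and 20 rose and 49 and 43 fell. Without DMSO library 1, 183 fell, and without DMSO library 2, 80 rose. ZNF813 fell from 43.3 and 48.8 CPM to 23.4 and 22.4 CPM.

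Of 25 cytokine receptors and STAT5 feedback genes 12 rose and 4 fell. Of the 24 above the cutoff in both ATRA libraries 11 rose and 4 fell, beside 17.2% and 20.2% of all such genes. IL21R, a receptor of lymphoid cells, went from 0.463 and 0.263 CPM to 6.21 and 5.93 CPM, and IL10RA, the interleukin 10 receptor, from 0.752 and 0.737 CPM to 4.82 and 4.35 CPM. CSF2RB, the signalling chain of the GM-CSF receptor in whose ligand the cells were grown, rose by 0.26. SOCS2, a feedback inhibitor, rose from 105 and 99.2 CPM to 178 and 175 CPM, while PIM1, another STAT5 target, fell by 0.30. CSF3R, the G-CSF receptor, fell by 0.52. Falls of this list numbered 2 with the 4 libraries alone or without either Corin library, and 7 without DMSO library 2. Among 30 cytokine and inflammasome genes 17 were tested, of which 5 rose and 2 fell, beside 20.5% and 17.3% of all tested genes. LIF was at 1.85, IL1B at 0.75 and VEGFA at -0.84 on the log2 scale. The median log2 fold change of that list was 0.37, and 0.22 without Corin library 1.

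Of 22 listed genes of the retinoid pathway 6 rose, 2 fell, 6 did not pass and 8 had too few counts. The 6 rises and 2 falls were among 14 members tested, beside 20.5% and 17.3% of all tested genes. Of its 12 members above the cutoff in both ATRA libraries 4 rose and 2 fell, beside 17.2% and 20.2% of all such genes. RARG, a retinoic acid receptor, went from 0.810 and 0.869 CPM to 5.13 and 6.32 CPM (2.76 ± 0.188, adjusted p = 3.82e-05), whereas RARA was at 9.75 and 6.40 CPM with DMSO and at 8.75 and 7.67 CPM with Corin (adjusted p = 0.931). TGM2, a transglutaminase induced by retinoids in many cells, went from 2.69 and 2.11 CPM to 6.81 and 7.90 CPM. CRABP2, which carries retinoic acid to the nucleus, had 1 and 28 counts. In the fit of 4 libraries 4 of these genes rose and 1 fell. Of 20 genes that histone deacetylase inhibitors raise in many cell lines 7 rose, 0 fell, 10 did not pass and 3 had too few counts. H1F0, the linker histone of resting cells, went from 21.5 and 19.5 CPM to 92.5 and 91.5 CPM (2.17 ± 0.0709, adjusted p = 1.52e-06), and SYT11 rose by 1.34.

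Among the most abundant transcripts, given as TPM so that genes of different length can be set side by side, the largest rise by difference in TPM was in EEF1A1, translation elongation factor 1A. It was at 6350 and 9875 TPM with DMSO and at 10440 and 10030 TPM with Corin. Its log2 fold change, fitted on counts and not on TPM, was 0.28 and was not called with the 4 libraries alone. B2M was at 1680 and 2567 TPM with DMSO and at 3205 and 3058 TPM with Corin. HSPA8, a heat shock chaperone, fell most, from 1265 and 1795 TPM to 941.7 and 887 TPM. TFRC, the transferrin receptor that imports iron, was at 452 and 678 TPM with DMSO and at 287 and 283.5 TPM with Corin (-1.21 ± 0.0523, adjusted p = 5.02e-06), and HMGN2, a nucleosome-binding protein, fell from 443 and 608 TPM to 243 and 228 TPM. The DMSO libraries differed in TPM for EEF1A1, B2M, HSPA8 and TFRC by more than the Corin libraries did. In CPM they were closer, at 13580 and 13270 for EEF1A1 and at 1170 and 1243 for B2M.

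Long noncoding RNAs had MIAT as the largest rise at these levels, from 5.90 and 6.61 CPM to 68.6 and 73.3 CPM (3.50 ± 0.101, adjusted p = 1.08e-06). BISPR, which lies beside BST2 on chromosome 19, went from 1.19 and 1.13 CPM to 11.0 and 10.4 CPM, and the neighbouring BST2 rose as given above. LINC01215, LINC01132 and STXBP5-AS1 rose by 2.84, 2.65 and 2.49. MIR646HG fell from 10.9 and 14.1 CPM to 3.59 and 3.64 CPM (-1.79), and C20orf197 and PRKCQ-AS1 fell by 1.41 and 0.86. Whether reads were counted by strand is not stated in the sources used here, so antisense and overlapping genes such as STXBP5-AS1 and PRKCQ-AS1 are uncertain.

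The response was set against that of U-937, a monocyte-like leukaemia line without GM-CSF in its medium, treated with Corin or DMSO in the same way. Line and medium cannot be told apart. In a fit of all 16 libraries, the SKNO-1 response exceeded that of U-937 for 7.49% of 19872 genes and fell short of it for 5.28%. Of the 23 cholesterol genes tested 13 had a lower response in SKNO-1 and 0 a higher one, and of the 36 DNA replication genes 12 were lower and 0 higher. HMGCS1 had a log2 fold change of -0.08 in U-937 (difference between lines -1.42 ± 0.123, adjusted p = 2.42e-07), and H1F0 one of -0.20 (difference 2.37 ± 0.126, adjusted p = 4.99e-10). Of 25 monocyte and macrophage genes 10 had a higher and 3 a lower response in SKNO-1, but ITGAM, CD86 and VCAN rose in U-937 too, by 3.54, 4.01 and 3.73. Of 10 MHC class II genes 0 had a higher and 2 a lower response in SKNO-1. MIAT and LMO2 differed between the lines, by 3.53 ± 0.286 (adjusted p = 1.23e-07) and -1.63 ± 0.138 (adjusted p = 1.81e-07).

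The authors' deposited table for the same comparison lists 25150 genes with 3759 below an adjusted p of 0.05, of which 2017 are higher and 1742 lower. Of these, 3721 (98.99%) were also called here, all in the same direction, and they made up 56.2% of the calls made here.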

How the data were processed

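Total RNA was sequenced after a strand-marking library preparation, per the labels. Trimmomatic, STAR, RSEM, DESeq2, deepTools and the build hg38 are named in the submitters' processing notes, and their versions, the annotation release and the use of strand are not given in the sources used here. The authors' deposited table holds RSEM estimated counts (expected counts) for 60603 genes, of which 60261 matched GENCODE 44 by identifier; 20.4% of positive values were not whole within 1e-09, and all were rounded. TPM are the authors' values in their deposited RSEM files. The authors' deposited DESeq2 table gives a mean normalised signal, a log2 fold change and a p-value for each gene.

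Genes that passed filterByExpr (cutoff 0.293 CPM) were fitted in edgeR 4.0.16 (R 4.3.3, limma 3.58.1) with TMM scaling and the robust quasi-likelihood test over the 8 SKNO-1 libraries, with no block, 4 residual degrees of freedom and Benjamini-Hochberg adjustment over all 17479 genes. The threshold was an adjusted p of 0.05. The 8 libraries held 32.8 to 37.8 M counts each. CPM use TMM-scaled totals, and the fold change uses a prior count of 0.125. Errors of fold changes are standard errors, with 2 libraries a group. They were derived as the fold change without the prior count over the square root of the F statistic. All libraries of the fit, with the ATRA groups, therefore set their spread. Differences between lines came from the same fit over all 16 libraries. On simulated counts (15977 genes, 200 changed), 96% of 2-fold rises, 58% of 1.5-fold rises and 84% of falls to 0.5 were recovered, with 14 false among 183 calls. The simulation gave every gene the same spread and held no difference between DMSO libraries that followed GC content. Its rates therefore cannot be carried over to the real libraries, whose DMSO pair differed in that way.

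Genes named are the 12 protein-coding genes with the largest called rise and fall at a mean of at least 5 CPM with no overlap between groups, the 8 with the largest TPM difference and the 5 long noncoding genes with the largest change each way, all members of the CoREST and RUNX lists, and, in each of 42 lists, up to 5 called members each way with the largest change plus defining members. Other genes were chosen after their values were seen. The members and lists were chosen with earlier results of these data known. Alternatives were the 4 libraries alone, a replicate block, DESeq2 1.42.0, other scalings and filters, removal of the GC trend (lowess span 0.3) and leaving out each library. Intervals and floors of 3 counts cover counting error only.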

Additional observations from a re-analysis of the deposited data

Results flagged for a closer look

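The response to Corin differed between SKNO-1 and U-937 for 2537 genes by the interaction term of edgeR's quasi-likelihood test over all 16 libraries, which is why these results are listed. Of the largest rises in SKNO-1, the SKNO-1 log2 fold change minus that of U-937 was 6.06 for FCGR2B, 5.17 for LRP1, 4.88 for CLEC4A, 4.77 for OTOF (adjusted p = 0.0482), 4.09 for CD22, 3.50 for TNNT1 and 3.02 for ITGAM. It was 1.58 for VCAN, 1.55 for MS4A4A and 1.498 for CD86. All of these rises but that of CLEC4A (adjusted p = 0.293 by edgeR) were also called in U-937, from 1.53 for TNNT1 to 4.09 for MS4A4A. Of the largest falls, the difference was -2.05 for AGTRAP, -1.86 for EXOSC4, -1.78 for KCNH2, -1.61 for RDH10, -1.57 for CST7, -1.45 for P2RY2, -1.44 for CDH26 and -1.30 for ADI1. Line and GM-CSF in the medium cannot be told apart.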

How the results depend on the processing

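The 2 vehicle libraries differed more than any other replicate pair of SKNO-1, and each group had 2 libraries, which limits small changes most. Of 6616 calls (3587 higher, 3029 lower, 2085 and 211 of them beyond 1 on the log2 scale), 3776 remained in number with only the 4 libraries compared, 1337 of them lower, and 3757 of those were shared. Without a low-count filter 321 genes fell by 1 or more, and with at least 1 CPM in at least 4 libraries 1298 rose and 127 fell by that size. With 1 library left out, 3636 to 9520 genes were called, 2276 to 4464 higher and 1326 to 5064 lower, with 1602 to 2304 and 148 to 612 beyond 1. DESeq2 called 5660 genes. The replicate numbers were not shown to pair the samples (correlation of replicate differences 0.0653 between Corin and DMSO, -0.488 to 0.236 for the other pairs of groups), and a replicate block gave 5930 calls, or 2421 for the difference between lines. For that difference, removing the GC trend gave 4135 calls, 2149 of them lower, and leaving out 1 library gave 1519 to 4473 calls, 971 to 1891 higher and 510 to 2582 lower. Scaling to library totals moved the median of all genes to 0.05. Direction turned for some genes of the CoREST and RUNX lists, none of them called with all 8 libraries, and the cause was not tested. With library totals, and then with at least 1 CPM in at least 4 libraries, the log2 fold change was 0.031 and 0.034 for KDM1A, 0.016 and 0.023 for HDAC2, 0.037 and 0.040 for TAL1, and 0.039 and 0.042 for RUNX3. Without the GC trend it was 0.010 for TAL1 and 0.042 for RUNX3, and with the 4 libraries alone 0.00021 for RUNX3. With 1 library left out it ran from -0.043 to 0.0074 for KDM1A, -0.22 to 0.041 for RCOR1, -0.024 to 0.44 for RCOR3, -0.13 to 0.043 for HDAC2, -0.25 to 0.54 for HMG20B, -0.12 to 0.29 for GSE1, -0.30 to 0.11 for REST, -0.14 to 0.49 for RUNX2 and -0.10 to 0.078 for RUNX3. Some of these passed edgeR's threshold with a DMSO library left out: without replicate 2, RCOR3, GSE1 and RUNX2 higher, HMG20B lower (adjusted p = 0.0405) and REST higher (0.0308), and without replicate 1, RCOR1, HDAC2 and REST lower and HMG20B higher.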
